A study of Salmo salar with 8 samples.

Results

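Gill nuclei that carried the transcript of LOC106600198, a gene annotated as mucin-5AC-like, were gathered from single-nuclei RNA sequencing of Atlantic salmon gill. The nuclei were selected on this gene alone: a nucleus was taken when it held at least 2 UMIs of it and its level was at least 1500 CPM (its UMIs over all UMIs of the nucleus, on the usual counts-per-million scale), where a UMI (unique molecular identifier) stands for 1 captured transcript molecule. The gate held 152 of 19709 nuclei (0.771%). These nuclei are called gated nuclei here, and the other 19557 are called other nuclei. The gate gene chose the nuclei, so its own level is given as a description and it was left out of every sum and test.

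The 8 samples were duplicates from 4 smolt developmental states of fish raised from hatching in constant light. T1 fish were freshwater parr in constant light, T2 fish had, per the labels, spent 8 weeks on a short photoperiod, T3 fish had then been back in constant light for 8 weeks (the study's methods count both spans in days and make them somewhat shorter), and T4 fish had followed the T3 course and then spent 24 h in full-strength seawater. All fish were of the same commercial strain, no transgene or other agent was used, and the gills were frozen before nuclei were isolated. The labels do not say whether a sample was 1 fish or several, so p-values measure the spread between these samples, which may in part be technical. In the edgeR tests of genes this spread was estimated largely over all genes together. Very small edgeR p-values therefore do not measure the spread of a gene by itself over these few samples.

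Goblet cells are secretory cells of mucous epithelia, including fish gill and skin. They store gel-forming mucins, large proteins that carry dense O-linked sugar chains, in granules, and release them as mucus. In mammals, MUC5AC is the gel-forming mucin of airway and stomach surface cells, mucins fold in the endoplasmic reticulum with the help of AGR2, and the transcription factors SPDEF and FOXA2/FOXA3 take part in the differentiation of goblet cells.

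The files held 27390978 UMIs in 34514 genes, with 1748 to 3373 nuclei and 2770081 to 4383507 UMIs per sample. The median nucleus held 638 to 1031 UMIs in each sample. Of the barcodes, 49 occurred in 2 libraries, and 0 of the gated nuclei carried one of them. Of the 865 nuclei with 2500 or more detected genes, 0 were gated. Gated nuclei had a median of 923.5 UMIs (range 470 to 3593), against 848 UMIs in other nuclei, and together they held 158079 UMIs.

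The gate rested on few molecules. Of the 152 gated nuclei, 90 had exactly 2 UMIs of the gate gene, 29 had 3, 13 had 4 and 20 had 5 or more, with a maximum of 15. The 3 nuclei nearest to the threshold inside the gate had 1500, 1540 and 1542 CPM, and the 3 nearest outside had 1475, 1467 and 1439 CPM. A further 64 nuclei had 2 or more UMIs of the gene but fell outside the gate, and their median depth was 3032 UMIs. Gated nuclei held 464 of the 1605 UMIs of the gene (28.9%), so that most of its molecules lay in nuclei outside the gate.

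Nuclei of a cell type that should lack the gene also held its UMIs. T cells should lack a mucin, and of 428 nuclei outside the gate with at least 2 UMIs over the CD3 complex genes (median depth 830 UMIs), 29 had a UMI of the gate gene (6.78%, exact 95% interval 4.58 to 9.59). Over all nuclei the share was 6.05% (1193 of 19709, median depth 849 UMIs), and 977 of these nuclei had exactly 1 UMI. The full gate was passed by 3 of 431 nuclei with at least 2 CD3 UMIs (0.696%, exact 95% interval 0.144 to 2.02), a share whose interval holds the 0.771% of all nuclei. These intervals cover counting error only. T cell nuclei therefore passed the gate at a rate that these counts could not tell from that of all nuclei. The part of free RNA in the gate was not tested.

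Levels of agr2 and sal are given by the number of gate gene UMIs as a description, since both were chosen for being high in gated nuclei. The folding partner agr2 had at least 1 UMI in 97 of 152 gated nuclei (63.8%, exact 95% interval 55.6 to 71.4), against 9.84% of other nuclei and 10.3% of CD3 nuclei. Its pooled level, its summed UMIs over all summed UMIs of a group of nuclei, was 93.9 CPM in nuclei with 0 UMIs of the gate gene, 349 CPM in nuclei with 1 UMI and 535 CPM in the 64 nuclei with 2 or more UMIs outside the gate. It was 1485 CPM in gated nuclei with 2 UMIs, 2814 CPM in those with 3 or 4 and 2871 CPM in those with 5 or more. The gene sal had 124, 363 and 433 CPM in the same 3 groups outside the gate, and 3196, 3005 and 4774 CPM in the same 3 groups inside it. Nuclei with 1 UMI of the gate gene thus stood between those with 0 UMIs and those inside the gate in both genes.

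**Figure D1:**
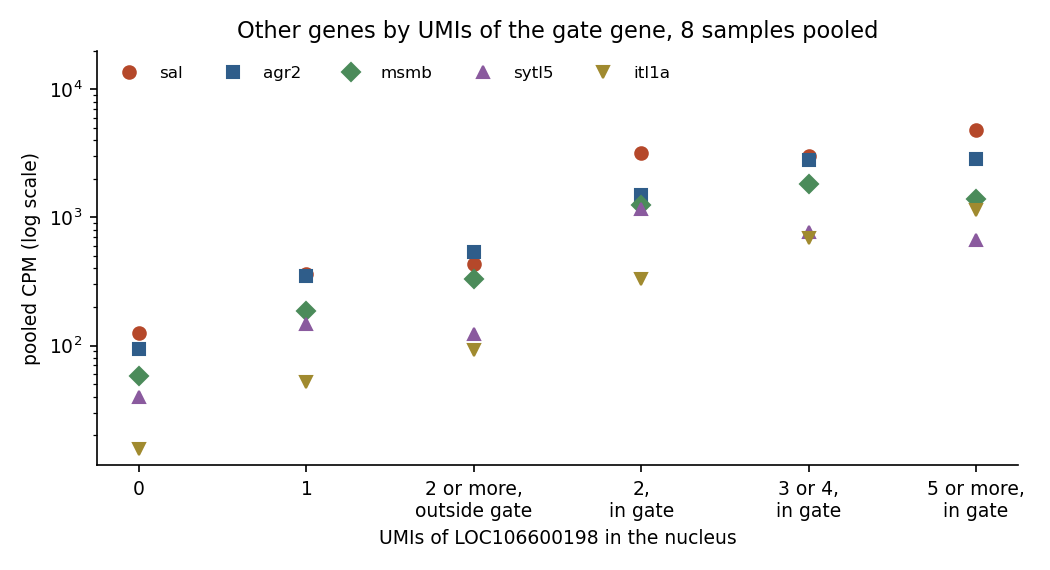
Pooled level of 5 genes (log axis, CPM over the 8 samples) in nuclei binned by their UMIs of the gate gene LOC106600198; each marker is 1 gene in 1 bin. The gene agr2 stands at 93.9 CPM with 0 UMIs and at 1485 to 2871 CPM in the 3 bins inside the gate.

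The gated nuclei were mixed in these genes. Over agr2, itl1a, msmb, sytl5 and sal, 5 genes picked after their values had been seen, 20 of 152 gated nuclei had a UMI of none, against 79.0% of nuclei outside the gate and 77.3% of CD3 nuclei. A UMI of 3 genes was found in 37 gated nuclei, of 4 genes in 34 and of all 5 in 10. In addition, 23 of the 152 gated nuclei passed the same form of gate for the ammonia channel gene RHCG (LOC106587392), a marker of pavement cells. For a second mucin-5AC-like copy, LOC106602669, 8 passed it. Over all 19709 nuclei, 6424 passed the RHCG gate and 3764 the LOC106602669 gate, which are larger shares than in gated nuclei. The nuclei are therefore called by their gate and not by a cell type.

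Gated nuclei were then compared with other nuclei within samples. UMIs were summed per sample and class, and a sample entered with at least 10 gated nuclei. This held for T1 samples 1 and 2 (32 and 39 gated nuclei), T2 sample 2 (27), and T3 samples 1 and 2 (14 and 20), whereas T2 sample 1 had 4 gated nuclei and the T4 samples had 8 each. Tests were edgeR quasi-likelihood tests with sample as a block and library totals as the scaling, and a gene was called at a Benjamini-Hochberg adjusted p under 0.01. A filter on low counts kept a gene only if as many sums as a class had samples reached a minimum level. In the small gated sums a few UMIs reached that level.

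The named genes with the largest positive changes in gated nuclei were s100p, rasef-1, itl1a, sal, msmb and agr2, whose levels follow. Leading named genes, here and below, were picked among called genes with the same direction in each sample. Their shared direction over the samples therefore follows from that choice. Of 16437 genes tested, 351 were higher (2.14%) and 112 were lower (0.681%) in gated nuclei, 2.82% in all. Of the 351, 214 carried no name in the sources used. The same holds for most genes of the files, since 12661 of all 34514 carried a name. The split depended on the scaling, since DESeq2 gave 261 higher and 79 lower, TMM scaling (trimmed mean of M values) over all genes gave 212 and 684, and TMM over abundant genes gave 355 to 433 and 56 to 101. The median log2 fold change of all genes was -0.06 with library totals, -0.81 with TMM over all genes and at most 0.21 with the others. Under every scaling tried, 209 of the 351 and 52 of the 112 were called, and all 463 kept their sign. Most genes had few UMIs in gated nuclei, so a gene without a call cannot be taken as unchanged. The count of lower genes was 49 without T2 sample 2, 69 without T3 sample 2 and 74 without T1 sample 2.

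The gene agr2 encodes a protein disulfide isomerase that mouse gut goblet cells need to make mucin. It had 2486 and 1186 CPM in gated nuclei of the T1 samples, 3478 CPM in T2 sample 2, and 1426 and 2834 CPM in the T3 samples, against 106 and 93.8, 65.8, and 113 and 135 CPM in other nuclei of the same samples. The lowest gated value lay far above the highest of the other nuclei, and the log2 fold change was 4.45 ± 0.23 (SE, edgeR adjusted p = 2.8e-78, higher in 5 of 5 samples). A second locus named AGR2, LOC100136469, was also higher (4.33 ± 0.33, 493 against 25.9 CPM pooled). The 2 loci may be near-identical copies between which reads can be split, so their separate levels are uncertain.

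The gene sal had 2213 and 2293 CPM in gated nuclei at T1, 5134 CPM in T2 sample 2, and 2445 and 6891 CPM at T3, against 93.9 and 111, 145, and 82.2 and 234 CPM in other nuclei. Its log2 fold change of 4.77 ± 0.22 (SE) was the same in direction in 5 of 5 samples. Its level in gated nuclei thus varied between samples, and in every one of the 5 it stood above the other nuclei of all 5.

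Secreted proteins were among the other leading genes. The gene itl1a, an intelectin whose mammalian relatives are goblet cell lectins that bind microbial sugars, had 136 to 1380 CPM in gated nuclei of the 5 samples and 9.57 to 38.5 CPM in other nuclei, with a log2 fold change of 4.79 ± 0.33 (SE). The gene msmb, for a small secreted protein known from the human prostate, averaged 1763 ± 1279 CPM in gated and 77.6 ± 32.5 CPM in other nuclei (SD, n = 5), or 4.46 ± 0.24 as a log2 fold change with its SE. The calcium-binding protein gene s100p averaged 333 ± 296 CPM in gated and 9.48 ± 1.53 CPM in other nuclei (5.12 ± 0.38), and 30 of its 50 gated UMIs came from T2 sample 2.

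Some genes tied to secretory granules were also among the leading genes. The gene sytl5, a synaptotagmin-like protein of the family that links Rab27 to secretory granules, had 543 to 1344 CPM in gated nuclei of the 5 samples, against 26.1 to 98.4 CPM in other nuclei (4.17 ± 0.25, SE). The myosin gene myo5c, a motor of secretory granules in mammalian glands, had 204 to 395 CPM, against 12.4 to 28.7 CPM (3.99 ± 0.39). The gene rasef-1, a Rab-like GTPase with calcium-binding domains, had 67.9 to 221 CPM, against 3.47 to 9.10 CPM (4.92 ± 0.49). Each of the 3 was higher in 5 of 5 samples. At its low level in other nuclei, rasef-1 needed gated sums to pass the filter, which set its direction in part.

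**Figure D2:**
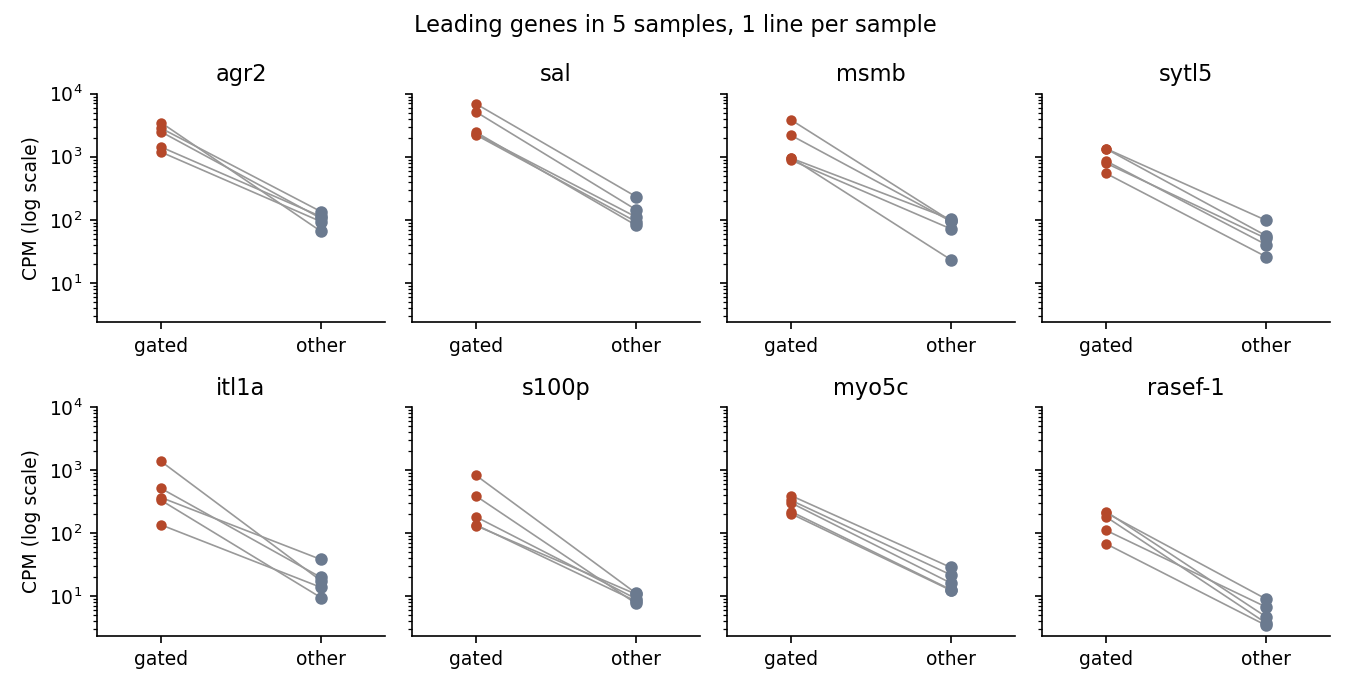
Level of 8 genes that were higher in gated nuclei, in gated and in other nuclei (log axis, CPM), with 1 line for each of the 5 samples with at least 10 gated nuclei. Every line falls towards other nuclei, since the genes were picked for the same direction in each sample. The lowest agr2 value in gated nuclei is 1186 CPM.

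The other named genes that were higher in 5 of 5 samples were tm16h (log2 fold change 4.23) and ano7 (LOC106580699, 4.00), both of the anoctamin family of channels and lipid scramblases, flvcr2a (LOC106591116, 4.24), a membrane transporter, a locus named zmp:0000000951 (LOC106578502, 4.34), the ETS transcription factor gene FEV (LOC106581833, 4.04), and kiaa1324 (3.98), a transmembrane protein gene. Their pooled levels in gated nuclei ran from 71.5 CPM for tm16h to 293 CPM for flvcr2a, against 3.48 to 16.5 CPM in other nuclei. The tm16h call rested on 10 UMIs in gated nuclei. At its low level in other nuclei, tm16h could pass the filter only through the gated sums, so its direction in 5 of 5 samples was set by the filter. In other nuclei, rasef-1, ano7 and LOC106578502 did not reach the level of the filter in every sample. They also needed gated sums to pass, so their direction was set in part by the filter. The 15 leading named genes kept their calls under every scaling and without any 1 sample. A stricter gate of at least 3 UMIs and 3000 CPM kept 36 nuclei over all samples. Only 2 samples entered its fit, T1 sample 1 with 10 of these nuclei and T2 sample 2 with 11. In that fit rasef-1, LOC106578502, flvcr2a, tm16h, FEV, ano7, myo5c and kiaa1324 were higher by 4.65 to 5.79 on the log2 scale and were no longer called.

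Of the transcription factors listed for mucous and other secretory cells, 12 of 15 were tested and 2 were higher, beside a share of 2.14% over all genes, and 0 were lower. Both were CREB3L4 genes, which encode bZIP factors anchored in the endoplasmic reticulum membrane. The gene creb3l4 had 273 and 395 CPM in gated nuclei at T1, 304 CPM in T2 sample 2, and 0 and 333 CPM at T3, against 28.4 to 45.9 CPM in other nuclei (log2 fold change 2.99 ± 0.38). The gene cr3l4 also had 0 in T3 sample 1 and was higher in 4 of 5 samples (2.29 ± 0.41), and its call was lost with DESeq2 and without T1 sample 2 (1.84). The goblet cell factor gene spdef had 7 UMIs in gated nuclei (50.04 CPM), against 6.78 CPM in other nuclei. Its log2 fold change of 2.70 ± 0.76, positive in 5 of 5 samples, did not pass the threshold (edgeR adjusted p = 0.012), whereas DESeq2 and TMM over abundant genes called it. At its low level in other nuclei, spdef needed gated sums to pass the filter, so its direction was set in part by the filter. The median of the list was -0.00, beside -0.06 for all genes.

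The list of mucus packaging and exocytosis had 19 of 26 genes tested, with 6 higher and 1 lower, beside 2.14% and 0.681% of all genes, and a median of 0.53. The 6 were agr2, LOC100136469, sytl5, myo5c, sytl1 (LOC106588777, 2.40 ± 0.55) and a Golgi calcium pump gene, calcium-transporting ATPase type 2C member 1-like (LOC106574737, 2.02 ± 0.55). The last 2 were higher in 4 of 5 samples, and their calls were lost with DESeq2 and with TMM over all genes. Without T1 sample 2, sytl1 was no longer called (1.62), and LOC106574737 was called only without T3 sample 2 among the 5 fits that left out 1 sample (1.78 to 2.21). The 1 lower gene was zymogen granule membrane protein 16-like (LOC106592537), a lectin of secretory granules in mammals. It had 1303 and 343 CPM in gated nuclei at T1, 552 CPM in T2 sample 2, and 679 and 389 CPM at T3, against 2921 and 1116, 4546, and 1233 and 718 CPM in other nuclei (-1.64 ± 0.24, lower in 5 of 5 samples).

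None of the other mucin genes was higher in gated nuclei. Of 6 listed genes, 1 of which is annotated as flocculation protein FLO11-like, 5 were tested, 0 were higher and 2 were lower, beside 2.14% and 0.681% of all genes, with a median of -0.91. The second mucin-5AC-like copy LOC106602669 had 576 and 448 CPM in gated nuclei at T1, 193 CPM in T2 sample 2, and 204 and 167 CPM at T3, against 1586 and 782, 2856, and 730 and 761 CPM in other nuclei (-1.95 ± 0.27, edgeR adjusted p = 1.1e-10, lower in 5 of 5 samples). A mucin-2-like gene, LOC106608496, had 35.7 against 152 CPM pooled (-2.14 ± 0.58), but it rested on 5 UMIs and was lower in 4 of 5 samples. Of the other scalings, TMM over all genes alone kept this call, and it was lost without each sample but T3 sample 1 (-2.82 to -1.70 over the 5 fits). Another mucin-5AC-like copy, LOC106577588, had 42.9 against 52.2 CPM (-0.21 ± 0.67) and was not called. Reads of near-identical mucin copies can be split or dropped, so these levels are uncertain.

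Enzymes of O-glycan synthesis were tested in 40 of 71 listed genes, with 6 higher and 2 lower, beside 2.14% and 0.681% of all genes, and a median of 0.59. The higher genes were galnt6 (LOC100380735, 586 against 91.2 CPM pooled, log2 fold change 2.66 ± 0.27), galnt2 (LOC106589660, 2.96 ± 0.42), galnt5 (3.15 ± 0.48) and galnt5-like (LOC106586169, 2.71 ± 0.66), which attach the first sugar, c1galt1c1 (LOC106611522, 1.90 ± 0.44), the chaperone of the core 1 enzyme, and the sialyltransferase gene st3gal3 (2.95 ± 0.73). Under every scaling and without any 1 sample, galnt6, galnt2 and galnt5 were called. The other 3 were lost with TMM over all genes and without T2 sample 2, and galnt5-like and st3gal3 also without most other single samples. The lower genes, beta-1,4-galactosyltransferase 1-like (LOC106602599) and a probable galnt8 (LOC106576267), rested on 1 and 3 UMIs in gated nuclei, and both calls were lost without T2 sample 2.

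The list of endoplasmic reticulum folding and early secretion had 49 of 54 genes tested, with 5 higher and 0 lower, beside 2.14% and 0.681% of all genes, and a median of 0.57. The chaperone gene grp78 had 601 against 250 CPM pooled (1.29 ± 0.27), and the disulfide isomerase genes p4hb (1.71 ± 0.27), pdia1 (1.43 ± 0.27) and pdia5 (2.90 ± 0.38) were higher in 5 of 5 samples. The gene ern2 (LOC106591209), a stress sensor of mucous epithelia in mammals, was higher in 4 of 5 samples (2.49 ± 0.59). Of these 5 calls, pdia5 alone held under every scaling. Without T1 sample 1, grp78 was no longer called, nor was pdia1 without T2 sample 2, nor ern2 without any 1 sample other than T3 sample 1.

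**Figure D3:**
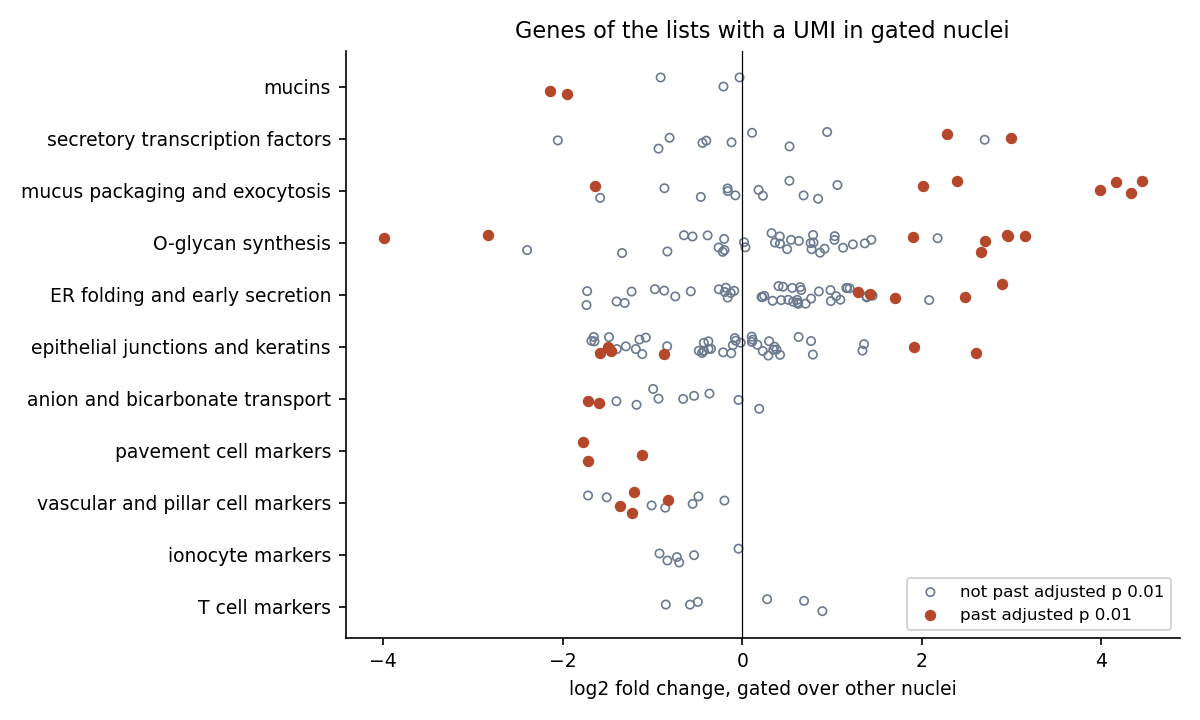
Log2 fold change (gated over other nuclei, library totals) of listed genes with a UMI in gated nuclei, 1 point per gene and 1 row per list. Filled points passed an adjusted p of 0.01: 6 of 19 tested genes of mucus packaging were higher, and the 2 mucins past the threshold were lower.

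Epithelial genes moved both ways. Of 48 genes tested among 63 junction and keratin genes, 2 were higher and 4 lower, beside 2.14% and 0.681% of all genes, with a median of -0.28, or -0.17 with genes at 0 set at their bound. The tight junction gene cldn3c (LOC106563774) had 1122 against 160 CPM pooled (log2 fold change 2.61 ± 0.25), and keratin 18 (LOC106572756) had 658 against 198 CPM (1.91 ± 0.26), both called under every scaling. The lower genes were 2 claudin-4-like copies (LOC106563812 and LOC106581065), cldn8.2 (LOC106581535) and a keratin 8-like gene (LOC106583604), with fold changes of -1.46, -1.49, -1.58 and -0.88, and none of these 4 calls held under every scaling or without T2 sample 2. Of 11 genes tested for anion and bicarbonate transport, 2 carbonic anhydrase 12 genes were lower, beside 0.681% of all genes, LOC106569486 (-1.72 ± 0.34) and cah12 (-1.59 ± 0.36), under every scaling. The first was not called without T1 sample 1, and the second was not called without T1 sample 2.

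The 13 mucosal defence genes tested gave 0 calls, with a median of -0.36 (-0.23 with genes at 0 set at their bound). The 4 tested receptor genes of hormones that act in smoltification gave 0 calls, with a median of -0.95, and the 16 cell cycle genes gave 0 calls, with a median of -0.65 (-0.41 at their bound). Over all genes these medians were -0.06 and 0.00, and 2.14% were called higher and 0.681% lower. At these shares, lists this short can be without a call, so 0 calls says little about them.

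Markers of other cell types were present in gated nuclei, with 0 genes of these lists called higher, beside 2.14% of all genes. Beside 0.681% of all genes, pavement cell ammonia channel genes were lower in 3 of 3, with 844 against 2888 CPM for LOC106587392 (log2 fold change -1.71 ± 0.22), and vascular and pillar cell genes were lower in 4 of 13, all 4 of them type I collagens, with a list median of -1.21 (-0.86 with genes at 0 set at their bound). Under every scaling 1 of these 3 calls and 2 of these 4 held, and 2 of the pavement calls, LOC106562250 (-1.77) and rhcg (-1.11), were lost without T2 sample 2. T cell (0 of 6), erythrocyte (0 of 16), ionocyte (0 of 6), myeloid (0 of 6) and B cell (0 of 2) genes gave no call. The summed level per sample was 0 to 340 CPM in gated nuclei and 78.2 to 263 CPM in other nuclei for T cell genes, 4140 to 16573 and 4282 to 13783 CPM for erythrocyte genes, and 497 to 5091 and 1468 to 3328 CPM for ionocyte genes. It was 667 to 5455 CPM in gated and 2232 to 5486 CPM in other nuclei for pavement genes, and 1818 to 10395 and 4138 to 15246 CPM for vascular genes. These ranges run over all 8 samples, also those that did not enter the tests. The 4 gated nuclei of T2 sample 1 gave the highest gated values of ionocyte and pavement genes and the lowest of vascular genes. The part of such RNA in the values of gated nuclei was not tested.

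Named genes lower in 5 of 5 samples rested on few UMIs, and 2 of them had no UMI in the gated nuclei of the 5 samples. These 2 passed the filter through the sums of other nuclei alone, which fixed their direction. A count of 0 allows up to 3 UMIs over the summed gated nuclei, or 21.4 CPM, so dazap2 (LOC106567170, 71.4 CPM in other nuclei) was at least 3.33-fold lower and the adaptor gene growth factor receptor-bound protein 14-like (LOC106586192, 68.6 CPM) at least 3.2-fold lower in gated nuclei. The kinase gene pkn3, the MICAL2-like gene LOC106562102, which oxidises actin in mammals, and the receptor partner gene ramp2 had 1 gated UMI each (7.15 CPM, against 128, 105 and 105 CPM). The gene LOC106562538, related to huntingtin-interacting protein 1, pdli2 and the TRIM39-like gene LOC106578111 had 2 each (14.3 CPM, against 132, 122 and 121 CPM). The genes with 1 or 2 gated UMIs stood at 0 in most of the gated sums. They too passed the filter through the sums of other nuclei, which largely set their direction. The formin-like protein 1 gene LOC106579340 had 5 UMIs (35.7 against 258 CPM, -2.89 ± 0.53). The 3 samples with under 10 gated nuclei held a further 3 UMIs of pkn3, 2 of ramp2, 2 of LOC106562538, 2 of dazap2, 3 of LOC106579340 and 1 each of LOC106586192, LOC106562102, pdli2 and LOC106578111. With all 8 samples in the fit, the log2 fold change was -2.39 for pkn3, in place of -4.21, and -2.46 for ramp2, in place of -3.74, both still called, whereas dazap2 (-2.45) and LOC106586192 (-3.39) were not called. Of these 9 genes, pkn3 and LOC106579340 were called under every scaling. The call of pkn3 was lost without T1 sample 2 (-3.51), and each of the other 7 lost its call without at least 2 of the 5 samples, whereas LOC106579340 kept it without any 1 sample (-3.28 to -2.64) and lost it with the stricter gate.

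Gated nuclei were also compared with 2 epithelial populations. The first consisted of 3756 nuclei outside the gate that passed the same form of gate for the second mucin-5AC-like copy, LOC106602669, and the second of 6401 nuclei outside the gate that passed it for RHCG. The gate genes of both classes were left out, both comparisons share the gated sums, and 2642 nuclei belonged to both populations, so the comparisons are not independent. Nuclei of both populations were also deeper than gated nuclei. In T2 sample 2, 377 LOC106602669 nuclei held 2004350 UMIs and 402 RHCG nuclei held 1960875, against 36222 UMIs in 27 gated nuclei. In T3 sample 2, 330 and 865 nuclei held 518066 and 1251109 UMIs, against 17991 in 20 gated nuclei. Depth was not matched here, and its part in the differences was not tested. Against LOC106602669 nuclei, 470 of 5443 genes were higher (8.63%) and 477 lower (8.76%) in gated nuclei, 17.4% in all. Against RHCG nuclei 379 of 8044 were higher (4.71%) and 365 lower (4.54%), 9.25% in all. These splits rested on the scaling, with 224 to 2139 higher and 65 to 721 lower genes in the first comparison and 218 to 1543 and 113 to 652 in the second. Under every scaling, 224 of 470 and 217 of 379 higher calls were kept, but only 65 of 477 and 110 of 365 lower ones, and 75 of the 477 and 1 of the 365 changed sign. Without T1 sample 2, the lower genes numbered 315 against LOC106602669 nuclei and 209 against RHCG nuclei, and without T2 sample 2 they numbered 237 against RHCG nuclei.

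The gene agr2 had 1186 to 3478 CPM in gated nuclei, against 15.7 to 65.0 CPM in LOC106602669 nuclei and 13.2 to 77.3 CPM in RHCG nuclei, with log2 fold changes of 6.16 ± 0.27 and 5.55 ± 0.27 (SE). The gene sal had 2213 to 6891 CPM, against 25.5 to 44.9 and 25.3 to 110 CPM (6.62 ± 0.27 and 6.02 ± 0.27). The gene sytl5 differed by 6.62 ± 0.31 and 5.97 ± 0.29, and rasef-1 by 8.12 ± 0.53 and 7.09 ± 0.49, where 2 and 8 UMIs were its whole count in the 2 populations. Each of these 4 genes was higher in 5 of 5 samples in both comparisons. Of them, sal, sytl5 and rasef-1 were chosen for their size and shared direction here, and agr2 for its size and shared direction against other nuclei. Because rasef-1 was almost absent from both populations, it passed the filter only by having UMIs in all 5 gated sums. Its direction was therefore set by the filter, as was that of sytl5 against LOC106602669 nuclei. The gene agr2 in both comparisons, sal against LOC106602669 nuclei and sytl5 against RHCG nuclei also needed gated sums to pass. Their direction was thus not wholly free of the filter.

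The other named higher genes were flvcr2a (LOC106591116, 7.0 and 5.91), s100p (6.69 and 5.98) and LOC106578502 (6.19 and 5.72) in both comparisons, myo5c (6.43) and kiaa1324 (6.22) against LOC106602669 nuclei, and ano7 (LOC106580699, 6.66) and tm16h (6.18) against RHCG nuclei. The gene spdef passed against RHCG nuclei (4.01 ± 0.63, 50.09 against 2.80 CPM), though not with DESeq2, and was not among the genes tested against LOC106602669 nuclei. Like rasef-1, spdef and the genes named before it were at very low levels in those populations, so the filter set their direction. Of the same list of secretory transcription factors, LOC106560372 and LOC106565106 were called lower in both comparisons, though not under every scaling. Keratin 18 (LOC106572756) was higher in gated nuclei in both comparisons (3.89 ± 0.28 and 3.24 ± 0.27), and so was cldn3c (LOC106563774, 3.38 ± 0.26 and 3.26 ± 0.27).

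The zymogen granule membrane protein 16-like gene LOC106592537 had 343 to 1303 CPM in gated nuclei, against 2538 to 8184 CPM in LOC106602669 nuclei and 1242 to 8089 CPM in RHCG nuclei (-2.92 ± 0.27 and -2.58 ± 0.27). Both of these calls held under every scaling. The mucin-2-like gene LOC106608496 was also lower in both (-3.2 ± 0.51 and -3.09 ± 0.53), but against LOC106602669 nuclei its call was lost with TMM over genes at 10 or more UMIs by pooled share (-1.71). In the gate genes of the 2 populations, RHCG (LOC106587392) stood at 6186 CPM in LOC106602669 nuclei and LOC106602669 at 2813 CPM in RHCG nuclei, against 844 and 351 CPM of these genes in gated nuclei. The 2642 nuclei in both populations had been selected for both genes, so these levels follow in part from the selection.

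The 8 named lower genes had 0 UMIs in gated nuclei of the 5 samples, and since those sums are shared, the same 8 loci are named in both comparisons. They passed the filter through the sums of the 2 populations alone, so their direction was set by it. The 2 gated T4 samples, which did not enter, held 2 UMIs each of dazap2 and LOC106606541 and 1 each of LOC106586192 and nrg1. With all 8 samples LOC106606541 lost its call against LOC106602669 nuclei and dazap2 lost its call against RHCG nuclei. Copper-transporting ATPase 1-like (LOC106612217) was at least 6.26-fold lower than in LOC106602669 nuclei (134 CPM) and at least 5.38-fold lower than in RHCG nuclei (115 CPM). Growth factor receptor-bound protein 14-like (LOC106586192) was at least 5.67-fold and at least 5.42-fold lower, trim25l (LOC106573854) at least 5.0-fold and at least 4.75-fold lower, and the growth factor gene nrg1 at least 3.95-fold and at least 3.75-fold lower. The remaining loci were a G protein alpha-11-like gene (LOC106613473), TRIM21-like (LOC106602208), dazap2 (LOC106567170) and AHNAK-like (LOC106606541), at least 3.51-fold to 4.45-fold and 3.55-fold to 4.59-fold lower. Copper-transporting ATPase 1-like, LOC106586192 and trim25l were called under every scaling in both comparisons. Without T2 sample 2, LOC106606541 lost its call against LOC106602669 nuclei and nrg1 against RHCG nuclei, and without T1 sample 2, LOC106602208 and dazap2 lost theirs against RHCG nuclei.

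The lists of secretory genes moved in both directions. Their counts and medians are not free of the filter, since a gene low in 1 class could enter only through the sums of the other. Among the higher genes, the filter set the direction of sytl5 and myo5c against LOC106602669 nuclei and of spdef against RHCG nuclei. In part it also set that of agr2 in both comparisons and of sytl5 against RHCG nuclei. Against LOC106602669 nuclei, 8.63% of all genes were higher and 8.76% lower, and the median over all genes was 0.04. Beside these, mucus packaging genes were higher in 5 and lower in 3 of 15, with a median of 0.94. O-glycan genes were higher in 5 and lower in 2 of 23 (median 0.09), endoplasmic reticulum genes higher in 4 and lower in 0 of 24 (0.52), and secretory transcription factor genes higher in 2 and lower in 3 of 9 (-0.88). Junction and keratin genes were higher in 2 and lower in 11 of 35 (-0.59).

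Against RHCG nuclei, 4.71% of all genes were higher and 4.54% lower, and the median over all genes was 0.09. Beside these, mucus packaging genes were higher in 5 and lower in 2 of 16 (median 0.77). O-glycan genes were higher in 5 and lower in 2 of 27 (0.13), endoplasmic reticulum genes higher in 5 and lower in 0 of 34 (0.59), secretory transcription factor genes higher in 3 and lower in 2 of 10 (-0.61), and junction and keratin genes higher in 2 and lower in 10 of 37 (-0.34). Under every scaling, the higher calls kept against LOC106602669 nuclei and against RHCG nuclei were 5 and 4 for mucus packaging, 3 and 4 for O-glycan, 2 and 3 for endoplasmic reticulum, 1 and 1 for transcription factor and 2 and 2 for junction genes. The lower calls kept were 1 and 2 for mucus packaging, 2 and 2 for O-glycan, 0 and 0 for transcription factor and 0 and 3 for junction genes.

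Markers of other cells moved as well. Over all genes tested, 8.63% were higher and 8.76% lower against LOC106602669 nuclei, and 4.71% and 4.54% against RHCG nuclei. Erythrocyte genes were higher in gated nuclei in 9 of 15 tested against LOC106602669 nuclei, with a median of 0.98, but 0 of these 9 were called under every scaling, and in 0 of 15 against RHCG nuclei, with a median of 0.48. Vascular and pillar cell genes were higher in 5 and lower in 1 of 9 tested against LOC106602669 nuclei (1 of the 5 under every scaling), and higher in 2 and lower in 1 of 9 against RHCG nuclei (0 under every scaling). Ionocyte genes were higher in 2 of 5 against LOC106602669 nuclei (LOC100136390 and nkcc1a, median 0.71), with 0 kept under every scaling, and in 0 of 5 against RHCG nuclei (median 0.17). The part of such RNA in the other differences was not tested.

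The share of gated nuclei was then followed over the 4 states. Gated nuclei were 32 of 2763 (1.16%, exact 95% interval 0.793 to 1.63) and 39 of 1982 (1.97%, 1.4 to 2.68) in the T1 samples, and 4 of 3373 (0.119%, 0.0323 to 0.303) and 27 of 1748 (1.54%, 1.02 to 2.24) in the T2 samples. They were 14 of 2659 (0.527%, 0.288 to 0.882) and 20 of 2375 (0.842%, 0.515 to 1.30) at T3, and 8 of 2823 (0.283%, 0.122 to 0.558) and 8 of 1986 (0.403%, 0.174 to 0.792) at T4. Both T1 samples stood above the T3 and T4 samples, T2 sample 1 was the lowest of the 8, and T2 sample 2 lay between the T1 samples.

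**Figure D4:**
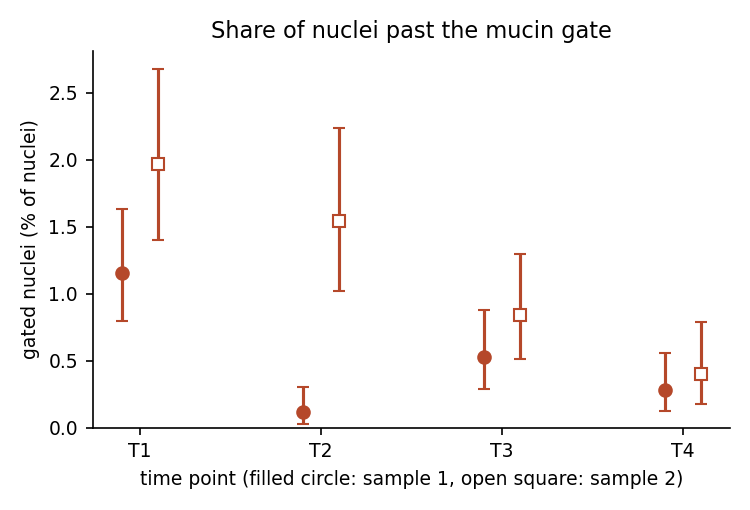
Share of nuclei past the gate in each of the 8 samples (percent), with exact 95% binomial intervals that cover counting error only. T1 samples stand at 1.16 and 1.97%, T4 samples at 0.283 and 0.403%, and the T2 samples at 0.119 and 1.54%.

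The T1 samples averaged 1.56 ± 0.572%, the T2 samples 0.832 ± 1.01%, the T3 samples 0.684 ± 0.223% and the T4 samples 0.343 ± 0.0845% (SD, n = 2). Over all 2520 arrangements of the samples, the states did not differ beyond their spread (exact permutation test of logit shares, p = 0.524), nor did the slope over T1 to T4 (p = 0.188, two-sided exact permutation test). The result turned on the T2 duplicates. Without T2 sample 2 the test over states gave p = 0.0095 and without T2 sample 1 it gave p = 0.057, while the slope without T2 sample 1 gave p = 0.0095 (exact permutation tests, 630 arrangements). T2 sample 1 had the lowest median depth, 638 UMIs, and its 4 gated nuclei had a median of 526.5 UMIs. To even out depth, nuclei were cut down at random to 500 UMIs each. This left out 775 shallower nuclei (1 of them gated) and kept 82 in the gate, with means of 0.815, 0.449, 0.424 and 0.180% over T1 to T4 and an exact permutation p of 0.524. Most of the nuclei left out came from T2 sample 1, where 2663 of 3373 nuclei stayed.

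The gate gene over all nuclei, given as a description, had 83.4 and 101 CPM in T1 samples, 38.6 and 59.0 CPM in T2 samples, 55.1 and 51.3 CPM in T3 samples, and 42.2 and 39.7 CPM in T4 samples. The percentage of nuclei with any UMI of it was 7.56 and 10.4 for T1, 3.08 and 7.15 for T2, 6.02 and 5.56 for T3, and 5.84 and 4.63 for T4. Both T1 samples were the highest of the 8 in each measure, and both measures include the molecules outside the gate.

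Levels inside the gated nuclei were compared between states for 873 genes in the 5 samples with at least 10 gated nuclei, so that T2 had 1 sample, which is assumed to vary like the T1 and T3 duplicates. Few genes were called. Between T2 and T1, 0 genes passed in edgeR (0.0%), with 34 at an unadjusted p under 0.05, and 0 in DESeq2, with 8, but 2 passed without T1 sample 2. Between T3 and T1, 1 gene was higher (0.115%) and 0 lower, with 74 at an unadjusted p under 0.05, while the count was 0 without T2 sample 2, 3 without T3 sample 2 and 5 without T1 sample 2. Between T3 and T2, 3 genes were higher (0.344%) and 2 lower (0.229%), 0.573% in all, with library totals, while DESeq2 called 0, with 23 at an unadjusted p under 0.05. Without T3 sample 1 or T3 sample 2 the count between T3 and T2 was 3.

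The gene higher at T3 than at T1 was LOC106562679, which has no name in the sources used and is listed as a pseudogene by RefSeq. It had 1766 and 2278 CPM in gated nuclei at T3, against 152 and 52.7 CPM at T1 (log2 fold change 4.29 ± 0.62, SE, edgeR adjusted p = 6.7e-09). In other nuclei it had 6367 and 5081 CPM at T3, against 621 and 433 CPM at T1. It thus rose in gated nuclei while standing higher in other nuclei of the same samples, and the change was larger in gated nuclei by 0.93 ± 0.64 on the log2 scale, a difference that did not pass the test (unadjusted p = 0.15, edgeR interaction). The T3 call was lost without T2 sample 2 (4.28), though the change itself was as large. At T4 it had 1813 and 1042 CPM in gated nuclei.

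The same locus was higher at T3 than at T2 (5.99 ± 0.99), as were 2 sodium/potassium-transporting ATPase alpha-1 genes, the pump of ionocytes. LOC106575572 had 747 and 945 CPM in gated nuclei at T3, against 0 CPM in T2 sample 2, and this call was lost without T3 sample 2. LOC100136390 had 1223 and 1445 CPM at T3, against 110 CPM in T2 sample 2 (3.55 ± 0.82, edgeR adjusted p = 0.0029), and its call was lost without either T3 sample (3.42 and 3.66). The gated nuclei of T2 sample 1, too few to enter, had 1454 CPM of each gene from 4 UMIs, and with all 8 samples in the fit neither gene was called. In other nuclei LOC106575572 had 956 and 1262 CPM at T3, against 159 and 137 CPM at T2, and LOC100136390 had 1095 and 1520 CPM, against 377 and 359 CPM. The ionocyte genes thus moved the same way in other nuclei. Markers of other cells moved with them in gated nuclei, since between T3 and T2 all 11 erythrocyte genes tested were positive (median 1.86) and all 7 vascular genes (median 1.78), with 0 calls in either list and a median of 0.11 over all genes. The summed erythrocyte level of gated nuclei was 16573 and 10726 CPM at T3, against 4140 CPM in T2 sample 2, and the summed vascular level was 8898 and 5224 CPM, against 2263 CPM. The part of such RNA and of free RNA in these changes was not tested.

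The 2 lower loci at T3 against T2, LOC106576605 and LOC106592622, carry no name in the sources used. LOC106576605 had 0 and 55.6 CPM at T3, against 2043 CPM in T2 sample 2 and 0 in the 4 gated nuclei of T2 sample 1 (-5.88 ± 0.91). LOC106592622 had 0 and 389 CPM at T3, against 2567 CPM in T2 sample 2 (-3.59 ± 0.67), and this call was lost without T3 sample 1 (-2.71). Both loci were high in gated nuclei relative to other nuclei over the 5 samples, at 708 against 10.2 CPM pooled for LOC106576605 (5.58 ± 0.36, higher in 4 of 5) and 958 against 38.4 CPM for LOC106592622 (4.24 ± 0.29, higher in 4 of 5). Of their gated UMIs in the 5 samples, 74 of 99 and 93 of 134 came from T2 sample 2.

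**Figure D5:**
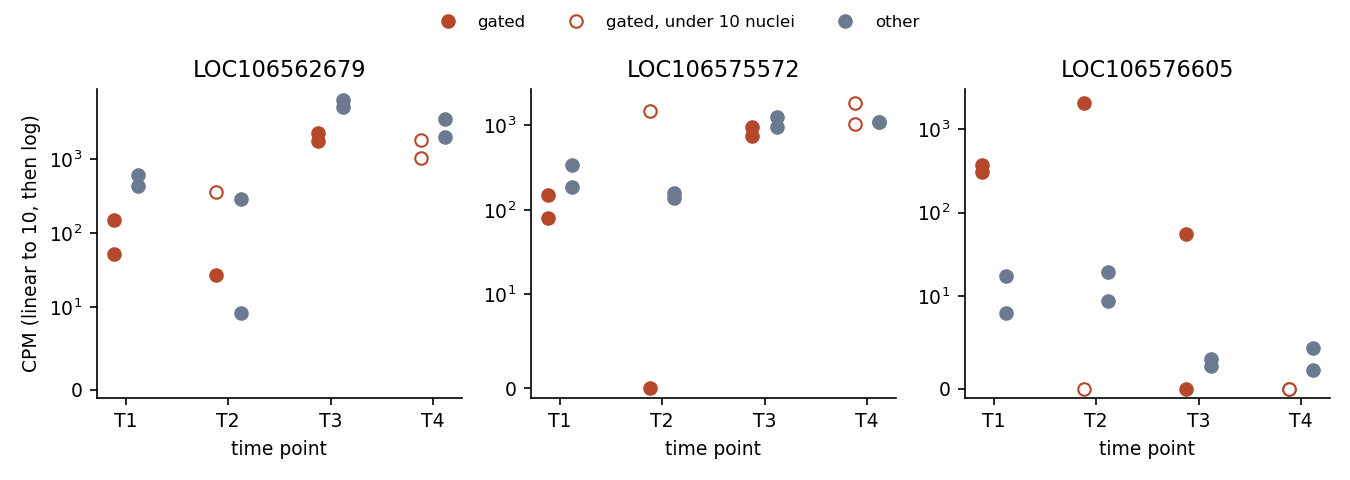
Level of 3 loci by state in gated nuclei (filled, samples with at least 10 gated nuclei; open, samples with fewer) and in other nuclei, 1 point per sample, on a CPM axis that is linear up to 10 and logarithmic above. LOC106562679 had 1766 and 2278 CPM in gated nuclei at T3, against 152 and 52.7 CPM at T1, and other nuclei moved in the same direction.

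The named genes agr2, msmb and itl1a gave no call between states. In the 2 samples of each state the gene agr2 had 2486 and 1186 CPM (T1), 1091 and 3478 CPM (T2), 1426 and 2834 CPM (T3), and 1088 and 1191 CPM (T4), and the ranges of T1, T2 and T3 overlapped. Between T3 and T1 it differed by 0.23 on the log2 scale (95% interval -0.86 to 1.31). The gene msmb had 2182 and 949 CPM (T1), 0 and 966 CPM (T2), 883 and 3835 CPM (T3), and 484 and 447 CPM (T4), with a T3 to T1 difference of 0.61 (-0.41 to 1.63). The gene itl1a had 515 and 369 CPM (T1), 1454 and 1380 CPM (T2), 136 and 333 CPM (T3), and 121 and 149 CPM (T4), so that both T2 samples stood above the other 6. Its difference between T3 and T2 of -2.49 ± 0.69 did not pass the threshold (edgeR adjusted p = 0.034). The values of T2 sample 1 and of both T4 samples rested on 4 and 8 nuclei, so that 1 UMI was worth 121 to 364 CPM there.

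T4 could be set against T3 only with all 8 samples entered, a choice made after the counts of nuclei were known. Of 270 genes tested, 0 passed in edgeR (0.0%), with 8 at an unadjusted p under 0.05, and 0 in DESeq2, with 6. The 4 mucus packaging genes and the 3 ionocyte genes tested gave 0 calls.

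Whether a change between states differed between gated and other nuclei was tested as an interaction. Between T2 and T1, 0 of 22865 genes moved more upwards and 2 moved more downwards (0.00875%) in gated nuclei, the unnamed loci LOC106605273 and LOC106562681, with 255 at an unadjusted p under 0.05, and DESeq2 called 0, with 90. Without T1 sample 1 the count was 0 and without T1 sample 2 it was 5. Between T3 and T1 and between T3 and T2, edgeR called 0 genes (0.0%), with 196 and 188 at an unadjusted p under 0.05, and DESeq2 called 0, with 109 and 78. A count of 1 passed between T3 and T1 without T2 sample 2 or T3 sample 2, and 1 passed between T3 and T2 without T3 sample 2. With all 8 samples, T4 against T3 gave 0 of 20699 in edgeR (145 at an unadjusted p under 0.05) and 0 in DESeq2 (75).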

How the data were processed

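The authors deposited, for each of 8 samples, a table of raw UMI counts per gene and barcode; per the labels and methods, libraries were 10x 3' v3 libraries processed with Cell Ranger (3.1.0 in the extract protocol, 3.0.1 in the processing notes) on the NCBI annotation of the ICSASG_v2 genome. Each gene listed for a sample had UMIs in 3 or more of its nuclei. The authors' filter, at least 200 and fewer than 2500 genes, leaves 18844 nuclei and was run as an alternative. Doublets were not removed, and free RNA was not modelled.

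Counts were summed per sample and class over samples with at least 10 gated nuclei, filtered with filterByExpr (minimum count 10) and tested in edgeR 4.0.16 (R 4.3.3; quasi-likelihood, Benjamini-Hochberg) with sample as block between classes. DESeq2 1.42.0 was an alternative. Shares were tested by exact permutation of logit shares (scipy 1.17.1), with exact binomial intervals; tables were read with Python 3.11.15, numpy 2.4.6 and pandas 2.3.3, and figures drawn with matplotlib 3.10.9. The design had named TMM over all genes. On simulated counts this scaling made false downward calls and library totals made none between gated and other nuclei, so library totals, listed as an alternative, were put in its place after calls on the real data had been seen. The simulated counts followed library totals, with the same composition in both classes apart from the changed genes. Library totals thus fitted them by construction, and the simulation cannot show which scaling suits the real data. TMM over genes with at least 5 expected UMIs also made 0 false calls there. TMM over all genes, over genes with at least 3, 5 or 10 expected UMIs by pooled or mean share, and DESeq2 were all kept as alternatives, along with no filter, an adjusted p of 0.05, a stricter gate of 3 UMIs and 3000 CPM, 500 to 3000 UMIs, all 8 samples, a replicate block and each sample left out.

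The gate, the gene lists and the choice of comparisons were made with earlier results of these data known. Named genes were the 15 largest positive and 10 largest negative changes with a name, the same direction in each sample and at least 50 CPM in the higher class, every called gene of the mucin, transcription factor and packaging lists, and the 8 largest each way in the other class comparisons. Other named list members, the itl1a time course and the unnamed loci were chosen after their values were seen. Of 27589 locus identifiers, 23594 occurred in the RefSeq gene table of another assembly, used for names only, and 3651 were named by it and 2771 by the study's tables. Numbered duplicates were not treated as pairs, since the correlations of their deviations over gated nuclei ran from -0.000357 to 0.274 and were not all above 0.1.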

Additional observations from a re-analysis of the deposited data

Results flagged for a closer look

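LOC106562681 and LOC106605273, which carry no name in the sources used, differed between the classes in their change between T2 and T1. LOC106562681 moved by -3.4043 ± 0.67 (log2, SE) in gated minus other nuclei (edgeR interaction, adjusted p = 0.0042). It had 0 and 221 CPM in gated nuclei at T2, against 1364 and 0 CPM at T1, and 1116 and 2372 CPM in other nuclei at T2, against 867 and 225 CPM at T1. The difference reversed to 8.16 without T1 sample 1, which held 45 of its gated UMIs.

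LOC106605273 moved by -5.5458 ± 1.05 (edgeR adjusted p = 0.0033). It had 0 and 27.6 CPM in gated nuclei at T2, against 788 and 52.7 CPM at T1, and 41.8 and 534 CPM in other nuclei at T2, against 223 and 85.8 CPM at T1. T1 sample 1 held 26 of its gated UMIs, and without that sample the value was -3.57 and no longer passed. DESeq2 called neither locus. T2 sample 1, with 4 gated nuclei, did not enter these fits.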

How the results depend on the processing

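Directions of the leading genes held under each alternative, whereas counts of calls, those of lower genes in particular, moved with the scaling. Against other nuclei, higher genes numbered 212 with TMM over all genes and 72 with the stricter gate. Lower genes numbered 188 at an adjusted p under 0.05, 684 with TMM over all genes, 60, 57 and 56 with TMM over genes at 3, 5 and 10 UMIs by pooled share, 18 with the stricter gate and 64 in nuclei of 500 to 3000 UMIs. Leaving out a sample gave 248 to 354 higher and 49 to 109 lower genes. Against LOC106602669 nuclei, higher genes numbered 224 with DESeq2, 278 with TMM over all genes, 779, 1042 and 2139 by pooled share, 129 with the stricter gate and 247 under the authors' gene filter. Lower genes numbered 721, then 267, 191 and 65 by pooled share, and 71 with the stricter gate. Leaving out a sample gave 346 to 536 and 315 to 465. Against RHCG nuclei, higher genes numbered 577 at an adjusted p under 0.05, 218 with DESeq2, 247 with TMM over all genes, 609, 702 and 1543 by pooled share and 110 with the stricter gate. Lower genes numbered 565, 652 with TMM over all genes, 242, 223 and 113 by pooled share and 25 with the stricter gate. Leaving out a sample gave 266 to 469 and 209 to 357. The cause of these moves was not tested.

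Between states within gated nuclei, an adjusted p under 0.05 gave 6, 11 and 10 genes for T2 against T1, T3 against T1 and T3 against T2. For T3 against T1 the count was 2 with DESeq2, 2 with no filter, 0 with TMM at 10 UMIs by mean share and 0 with DESeq2 on all 8 samples. For T3 against T2 it was 0 with DESeq2, 2 with TMM at 5 UMIs by mean share and at 10 by pooled share, 0 at 10 by mean share, 3 with no filter, and 0 with all 8 samples in edgeR or DESeq2. Leaving out a sample gave 0 to 2, 0 to 5 and 3 to 7, and 0 for T4 against T3. The interaction for T2 against T1 gave 0 genes with DESeq2, 4 with TMM at 3 UMIs, 6 at 5 or 10 UMIs, 0 under the authors' gene filter, and 1 in edgeR and 0 in DESeq2 with all 8 samples. For T3 against T1 it gave 1 at an adjusted p under 0.05 and 1 under the authors' gene filter. Leaving out a sample gave 0 to 5, 0 to 1 and 0 to 1. The interaction of LOC106562681 ran from -4.08 to 8.16 with a sample left out, reversed without T1 sample 1. The share test gave exact permutation p-values of 0.00952 to 0.781 with a sample left out, and the slope gave 0.00952 without T2 sample 1. With a replicate block, T3 against T1 gave 3 genes, T3 against T2 gave 7 (0 with all 8 samples), the T2 against T1 interaction gave 0 with either set of samples, and the share test gave an exact permutation p of 0.417; the numbers pair no samples in the design. The stricter gate left no residual degrees of freedom for fits between states, so these were not run.

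The depth limits what can be seen, since 1 UMI was worth 121 to 364 CPM in gated nuclei of T2 sample 1 and T4, and 90 of the 152 nuclei rest on 2 UMIs of the gate gene. Missing calls therefore do not show equal levels. Samples that share a state were processed as duplicates of unstated origin, and fewer nuclei of a type cannot be told apart from less of the gate transcript per nucleus.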

Other observations

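Nuclei gated on agr2 in place of the mucin-5AC-like gene, by the same form of rule, were more numerous than the gated nuclei, and their mean share was about as high at T4 as at T1. This gate was chosen after the agr2 values had been seen. It held 365 nuclei, 66 of which were also in the mucin gate, and 146 of the 365 had at least 1 UMI of LOC106600198 (40%, exact 95% interval 34.9 to 45.2). The mean shares were 1.98, 1.61, 1.83 and 2.10% over T1 to T4 (exact permutation p = 0.8, n = 2 samples per state), against 1.56, 0.832, 0.684 and 0.343% for the mucin gate. Outside the mucin gate the agr2 nuclei made up 1.38, 1.17, 1.51 and 1.97% over T1 to T4 (exact permutation p = 0.276). Whether the change over time differed between the 2 gates was not tested. Gated nuclei held 345 of 3448 agr2 UMIs (10.0%).

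Most of the genes higher in gated nuclei had no name in the sources used, and neither had most genes of the files (12661 of 34514 carried a name). Among the unnamed higher genes, LOC106608983 had 3060 CPM pooled in gated nuclei, against 116 CPM in other nuclei (log2 fold change 4.59 ± 0.23, edgeR, higher in 5 of 5 samples). LOC106577653 had 972 CPM, against 31.3 CPM (4.90 ± 0.25, higher in 5 of 5 samples). These 2 loci were chosen after their values had been seen.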
